A study of Mus musculus with 6 samples.

Results

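The brown-white gap of a gene is the difference between its log2 signal in brown fat and the mean of its log2 signals in epididymal and subcutaneous white fat. The gap was compared between mice without Kdm4b (KO) and wild-type mice (WT), using all 6 arrays of the series. Kdm4b encodes a histone demethylase, and the question was whether genes enriched in brown or in white fat keep their depot difference in its absence. The 6 groups were epididymal, subcutaneous and brown fat of WT and of whole-body Kdm4b KO mice, with 1 Affymetrix array each. All mice were male, 2 months old, held at room temperature on chow, and fasted for 6 hours before tissue was taken. The labels give neither the deleted exons, nor the number of mice behind an array, nor whether the 3 depots came from the same animals. A gap change is the KO gap minus the WT gap, so a negative value means that brown fat lost signal relative to white fat in KO. Of 18193 genes with a single symbol, 13239 exceeded a signal floor of 63 on at least 3 of the 6 arrays and were tested. With only 2 brown arrays, 228 genes above the floor on both of them and on no white array were not tested. Genes above it on 3 or more white arrays alone were tested, so counts of brown-fat and white-fat genes are not alike in scope. No group had a replicate array, so precision is limited by how few arrays there are. Error was available from 2 sources. The gap change of different probe sets of the same gene varied with an SD of 0.38, from the 4698 genes that had several usable probe sets. A limma model took its error from how far the KO-WT difference of epididymal fat departed from that of subcutaneous fat. It drew this error toward a spread shared by all genes, so a limma SE is not the gene's own error. For Lep the KO-WT difference was 1.25 in both white depots, and its SE was still 0.24. Neither source covers the spread between mice.

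Kdm4b itself, measured by 1 probe set, had signals of 226.7 (WT) and 188.4 (KO) in epididymal fat, 272.1 and 156.7 in subcutaneous fat, and 134.6 and 95.2 in brown fat. It was lower in the KO array of each depot, and its gap was alike in WT (-0.88) and KO (-0.85). A probe set outside the deleted part would not check the labels. The adipocyte genes Adipoq and Fabp4 were bright on every array, from 26703.7 to 38402.4 and from 37638.4 to 62775.1. Between 12655 and 13610 genes lay above the floor on an array, with the highest number on the subcutaneous KO array.

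Brown adipocytes burn fatty acids in numerous mitochondria and release the energy as heat through the uncoupling protein UCP1, whereas white adipocytes store triglyceride in a single large droplet and secrete leptin. Cells with brown traits can also arise within white depots. The difference between brown and white fat is therefore a difference in metabolic genes, in hormones and developmental regulators, and in the immune, stromal and neighbouring tissue that each depot contains. In bulk samples, fewer cells of a type and less RNA per cell cannot be told apart.

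Most of the brown-white difference was present in both genotypes. In WT, 1484 genes (11.2% of those tested) were at least 2-fold higher in brown fat and 2273 (17.2%) at least 2-fold higher in white fat. In KO the numbers were 1179 (8.91%) and 2354 (17.8%). The brown-fat genes common to both genotypes numbered 962 (7.27% of genes tested), which is 64.8% of the WT list and 81.6% of the KO list. For white fat, 1792 genes (13.5%) were common, 78.8% of the WT list and 76.1% of the KO list. The number of brown-fat genes was also smaller in KO after quantile normalization (1661 in WT and 1355 in KO) and under the 8 other settings of floor, probe set, filter and white depot, but not when arrays were centred on their medians (1493 and 1540). Across the 13239 genes, which are not independent replicates, the WT and KO gaps correlated with Pearson r = 0.889 and Spearman rho = 0.854. The 2 gaps come from separate arrays but share probe sets and depots. The gaps had an SD over genes of 1.06 in WT and 1.05 in KO, against 0.50 for the gap change.

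**Figure D1:**
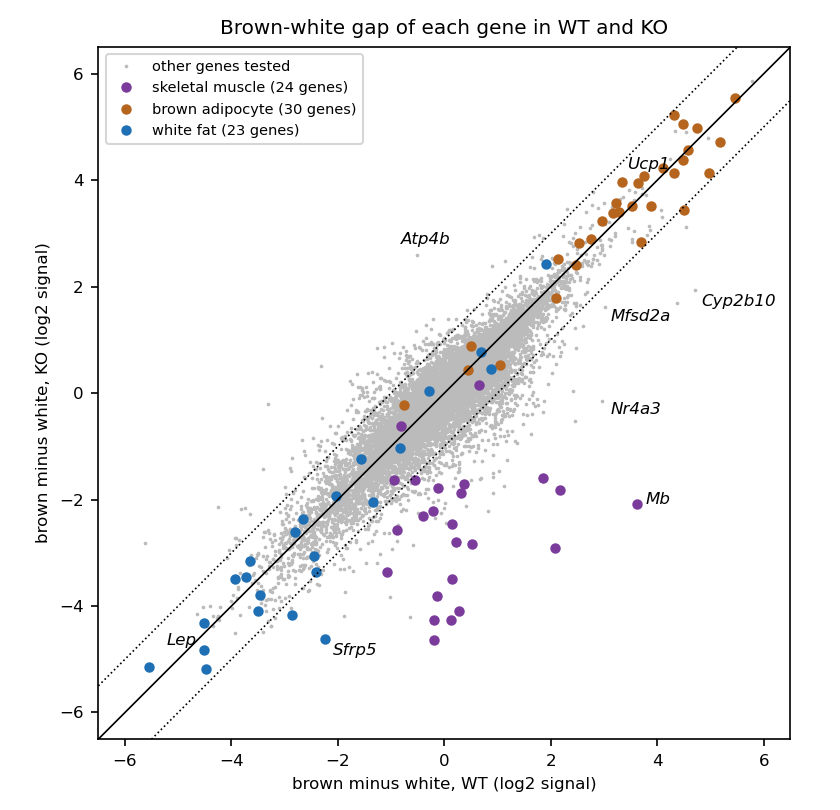
Brown-white gap of each of the 13239 genes tested in WT (x axis) and KO (y axis), in log2 signal; the solid line marks equal gaps and the dotted lines a 2-fold change. Most brown adipocyte genes and most genes of white fat lie near the solid line, toward opposite ends. The 24 skeletal muscle genes lie mostly below it, and Nr4a3, Cyp2b10, Mfsd2a and Sfrp5 stand apart from the line.

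A gap change of at least 2-fold was found for 487 genes downward (3.68% of those tested) and 215 upward (1.62%), together 5.3% of genes. The median gap change of all genes tested was -0.02, with 47.5% of genes above 0 and 52.5% below. Of the 487 genes, 259 were past 2-fold against each white depot taken alone, and of the 215 genes, 103 were. The brown arrays differed by 2-fold or more in the same direction for 211 and 84 of them, the white mean by 2-fold or more in the opposite direction for 46 and 23, and neither side reached 2-fold for 234 and 110. Only 225 of the 487 and 132 of the 215 were above the floor on all 6 arrays. Upward genes made up 30.6% of them with the values as deposited, 40.8% once arrays were quantile normalized and 47.8% once they were centred on their medians. Other probe sets of the same genes lay on the same side in 71.0% of 138 cases for downward genes and in 56.5% of 108 for upward genes, against 57.2% of 10245 for all genes tested.

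In the limma model 0 genes passed an adjusted p of 0.05 (smallest adjusted p = 0.53). At an unadjusted p under 0.05 there were 370 upward (2.79%) and 698 downward (5.27%) genes, together 8.07%. In simulated data of the same size the model recovered 0% of 200 genes given a gap change of 2 on the log2 scale, so the count of 0 says little. When the variance was allowed to follow intensity, limma called 9 genes upward and 25 downward, 10 of the latter skeletal muscle genes. All sizes given in the following are descriptions of these 6 arrays.

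Most genes on a brown adipocyte list stayed at least 2-fold higher in brown fat in both genotypes. Of 35 genes on a brown adipocyte list, 32 were on the arrays and 30 were tested. Among these, 27 were at least 2-fold higher in brown fat in WT, 26 in KO and 26 in both. Of all genes at least 2-fold higher in brown fat in WT, 64.8% were so in both genotypes. The gap change was positive for 18 and negative for 12, with a median of 0.12, and 1 of the 30 was past 2-fold downward and 0 upward, against 3.68% and 1.62% of all genes. The median gap was 3.58 in WT and 3.51 in KO. With gaps this large, a member could lose much of its gap and still pass the 2-fold criterion. The list's KO-WT difference had a median of -0.13 in brown fat and -0.14 in the white mean. The white depots differed, with a median of -0.46 in epididymal and 0.00 in subcutaneous fat. Taken against epididymal fat alone the median gap change was 0.36, and against subcutaneous fat alone -0.12.

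Ucp1 had signals of 44367.1 (WT) and 40618.7 (KO) in brown fat, 6648.8 and 4782.7 in epididymal fat, and 2934.3 and 1427.8 in subcutaneous fat. The 2 brown arrays were well above the 4 white arrays, and KO was lower in each depot. Its gap was 3.33 in WT and 3.96 in KO on the log2 scale, a gap change of 0.63 ± 0.34 (limma SE). Cidea, a lipid droplet protein gene, had an 11.5-fold gap in WT and an 11.4-fold gap in KO. The white depots taken alone gave opposite gap changes, 0.44 against epididymal and -0.46 against subcutaneous fat. Ppargc1a, which encodes a coactivator of mitochondrial biogenesis, had gaps of 9.31-fold and 11.9-fold. Slc27a2, a fatty acid transport gene, had gaps of 44.1-fold and 46.4-fold although its brown signal went from 19623.3 to 9866.2. For Slc27a2 the depots also differed, with gap changes of -0.525 against epididymal and 0.666 against subcutaneous fat. Kng1, the kininogen gene, had the highest averaged gap of the named genes, on the log2 scale at least 5.78 in WT and at least 5.85 in KO. Elovl3, a fatty acid elongase gene, had gaps of 36.4-fold and 26.4-fold.

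The brown adipocyte genes with the largest gap changes went both ways. Dio2, whose deiodinase makes active thyroid hormone, had brown signals of 7811.1 in WT and 3912.6 in KO, with white signals from 147.7 to 340.1. Its gap was 31.3-fold in WT and 17.5-fold in KO, a change of -0.84 ± 0.37 (limma SE), and 2 of 2 other probe sets went the same way. Otop1, which encodes a proton channel, was the member past 2-fold, at -1.06. There the white signals were higher in KO (277.7 to 500.5 in epididymal and 366.7 to 1283.8 in subcutaneous fat) while the brown signal was not lower (7229.4 to 8726.3). Esrrg, a nuclear receptor gene of oxidative metabolism, had -0.84 with the subcutaneous WT array under the floor, which rested on subcutaneous fat (-1.86) and not on epididymal fat (0.18). Acot11, a thioesterase gene, had the largest positive value, 0.90, with gaps of 19.9-fold and 37.2-fold, and Pank1, of coenzyme A synthesis, had 0.59. Prdm16, a transcriptional regulator of brown fat identity, had -0.32, within the SD between probe sets. Lhx8, Bmp8b, Ebf2 and Irf4 had gaps under or near 2-fold in both genotypes, and Irf4 was brighter in white fat. Zic1 was above the floor on the 2 brown arrays alone, at 875.9 in WT and 960.1 in KO, and Cited1 on the subcutaneous WT array alone, so neither was tested. Cpt1b, Adrb3 and Gyk were not analysed here.

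**Figure D2:**
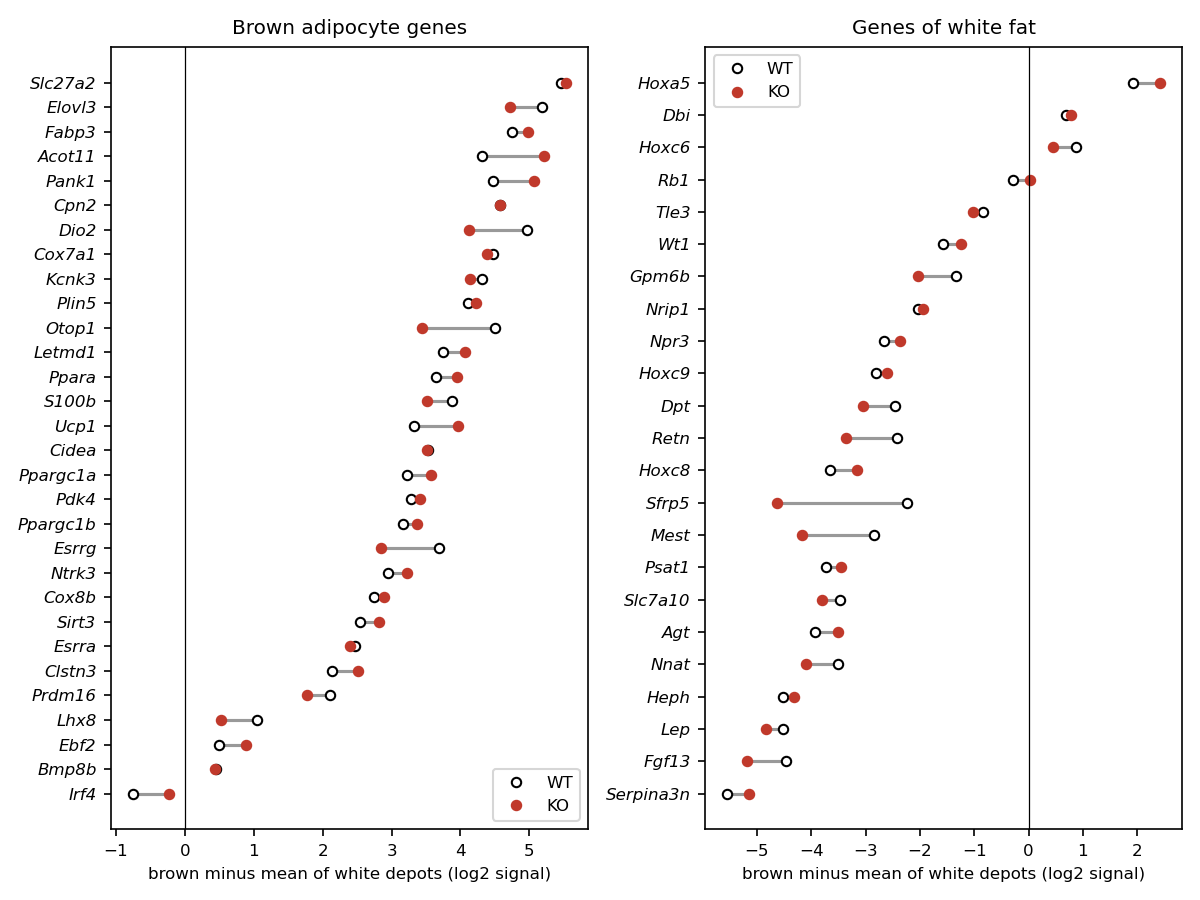
Brown-white gap in WT (open) and KO (red) of 30 brown adipocyte genes (left) and 23 genes of white fat (right), ordered by the mean gap, in log2 signal with 1 array per depot and genotype. The 2 points of most genes lie within 1 log2 unit of each other, with Otop1 (-1.06), Mest (-1.31) and Sfrp5 (-2.39) as the exceptions.

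Most mitochondrial genes were also at least 2-fold higher in brown fat in both genotypes. Among 67 oxidative phosphorylation genes, 63 were at least 2-fold higher in brown fat in WT and 62 in KO, with median gaps of 1.64 and 1.51. Their gap changes were small, with 49 of 67 below 0 (against 52.5% of all genes), a median of -0.10 and a range from -0.39 to 0.31. None was past 2-fold, against 5.3% of all genes. The direction of values this small depends on scaling, since the median of all genes was -0.02 as deposited and 0.12 after median centring. Fatty acid oxidation genes had median gaps of 2.03 and 1.92, with 20 of 24 at least 2-fold higher in brown fat in each genotype. In this list Ehhadh, a peroxisomal oxidation enzyme gene, was the 1 member of 24 past 2-fold, in the upward direction (against 1.62% of all genes). It had white signals of 1769.9 and 1784.1 in WT against 1168.3 and 803.7 in KO, and brown signals of 8744.4 and 10706.1. Its gap was 4.92-fold in WT and 11.0-fold in KO. All 21 tricarboxylic acid cycle genes tested stayed within 0.39 of an unchanged gap (median 0.02). Of 43 mitochondrial ribosome genes, 31 were at least 2-fold higher in brown fat in WT, 24 in KO and 24 in both. Among all genes tested, 64.8% of those at least 2-fold higher in brown fat in WT were so in both genotypes. The ribosome list had a median gap change of -0.13, with 31 of 43 below 0 (against 52.5% of all genes). Mrps11 had the largest size among these, at -0.72. Glycolysis genes had a median of -0.08 over 13 genes, with Hk1 at -0.54 and Hk2 at 0.45.

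Of 23 tested genes from a list of 26 typical of white fat, 22 had a gap of the same direction in both genotypes, and 2 had a wider gap in KO by 2-fold or more (against 3.68% of all genes going down). The exception was Rb1, with -0.29 in WT and 0.03 in KO. Among the 23, 18 were at least 2-fold higher in white fat in WT, 19 in KO and 18 in both. The gap change was positive for 12 and negative for 11, with a median of 0.09 and a mean of -0.21. Hoxa5 was at least 2-fold higher in brown fat in both genotypes, and Dbi and Hoxc6 were brighter there too, so that these 3 went against the list's name. Lep, the leptin gene, had signals of 6063.3 and 14420.7 in epididymal, 3857.5 and 9177.6 in subcutaneous, and 210.7 and 404.1 in brown fat (WT and KO). It was higher in KO in each depot, and its gap of 22.9-fold in WT and 28.5-fold in KO differed by -0.31 ± 0.24 (limma SE). Serpina3n, a serine protease inhibitor gene, had a gap of at least 46.9-fold in WT and 35.4-fold in KO, and Hoxc8, a positional transcription factor gene, gaps of 12.6-fold and 8.88-fold. Npr3, the clearance receptor gene of natriuretic peptides, was higher in KO in all 3 depots and had gaps of 6.32-fold and 5.15-fold. Hoxc10 and Tcf21 were above the floor on 2 arrays each, those of subcutaneous and of epididymal fat, and were not tested. Serpina3c was not analysed here.

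Sfrp5, which encodes a secreted Wnt antagonist made by adipocytes, had the largest gap change of the white-fat list. Its signals were 1131.0 (WT) and 3295.2 (KO) in epididymal fat, 616.2 and 1575.4 in subcutaneous fat, and 177.0 and 92.4 in brown fat. KO was the higher array in both white depots and the lower one in brown fat. The gap went from 4.72-fold to 24.7-fold, a change of -2.39 ± 0.25 (limma SE), with -2.48 against epididymal and -2.29 against subcutaneous fat. Mest, an imprinted gene that marks adipose tissue expansion, had a gap of 7.23-fold in WT and 17.9-fold in KO. Its white signals went from 2641.8 to 6313.6 and from 668.3 to 2769.2, while its brown signals were 183.8 and 233.0. Retn, the resistin gene, came just short of 2-fold at -0.95. Its brown signal was 4388.1 in WT and 2314.2 in KO and its white signals lay between 21322.3 and 25767.1 in both genotypes, so the wider gap came from brown fat. Gpm6b (-0.70), Dpt (-0.60) and Nnat (-0.59) also had negative values past the SD between probe sets. Fgf13 had -0.72, but its brown signals were 40.5 in WT and 86.3 in KO. Raising the WT signal to the floor makes this value more negative, so the size of its gap change is not known.

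Beyond these lists, genes were classed by the gap averaged over WT and KO, which weighs the genotypes equally. A member can have little or no gap in a single genotype, so a wider gap in KO need not mean that a WT difference grew. The averaged gap was at least 2-fold for 1204 brown-enriched and 2223 white-enriched genes. The filter left out genes above the floor in brown fat alone, so these 2 counts are not alike in scope. At the threshold, Wnk2 (1.0005) was inside and Gp1bb (0.9989) outside the brown-enriched class. Genes at least 2-fold apart in both genotypes made up 79.9% of the brown-enriched and 80.6% of the white-enriched class. These shares describe the classes only, since the same 2 gaps chose the members. The gap was smaller in KO by 2-fold or more for 36 brown-enriched genes (2.99%, against 3.68% of all genes going down) and wider for 9 (0.75%, against 1.62% going up). For white-enriched genes it was smaller for 57 (2.56%, against 1.62% going up) and wider for 115 (5.17%, against 3.68% going down). Of these 115 genes, 15 were on the skeletal muscle list, as was 1 of the 36. Choosing classes by a single genotype gave other counts. With the WT gap 160 brown-fat genes were smaller and 5 wider in KO, and with the KO gap 9 and 27.

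Among the brown-enriched genes whose gap was smaller in KO by the largest amounts, 3 had a much lower brown signal in KO. Nr4a3, which encodes an orphan nuclear receptor and is known to respond to cyclic AMP, had signals of 1726.1 (WT) and 132.6 (KO) in brown fat, against 198.1 and 155.8 in epididymal and 246.7 and 137.8 in subcutaneous fat. The brown WT array stood alone, and brown KO was as low as the white arrays. The gap was 7.81-fold in WT, and in KO the gap was -0.14 on the log2 scale, a gap change of -3.11 ± 0.32 (limma SE). Cyp2b10, a cytochrome P450 gene induced by the constitutive androstane receptor, had brown signals of 2810.8 and 517.9 and white signals from 94.2 to 193.5. Its gap was 26.0-fold in WT and 3.84-fold in KO. Mfsd2a, which encodes a transporter of lysophosphatidylcholine and is known to be induced in brown fat by fasting, had brown signals of 1589.4 and 332.8. Its white signals were 74.4 and 167.2 in epididymal and 79.3 and 58.7 in subcutaneous fat, the last under the floor, so its change of -2.67 depends on the floor.

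Promoter sequence is shown for these 3 genes, each with a lower brown signal in KO, and for the brown-fat genes Dio2 and Ucp1. Dio2 also had a lower brown signal in KO (7811.1 to 3912.6), and its gap went from 31.3-fold to 17.5-fold. For Ucp1 the brown signals were 44367.1 in WT and 40618.7 in KO. Each is the 250 bases before the start site on the gene's own strand, from RefSeq (GRCm38.p6). Capitals mark TGACG, the core of the cyclic AMP response element, on either strand; this motif was chosen after the values were seen.
Nr4a3, chr4:48045055-48045304, plus strand: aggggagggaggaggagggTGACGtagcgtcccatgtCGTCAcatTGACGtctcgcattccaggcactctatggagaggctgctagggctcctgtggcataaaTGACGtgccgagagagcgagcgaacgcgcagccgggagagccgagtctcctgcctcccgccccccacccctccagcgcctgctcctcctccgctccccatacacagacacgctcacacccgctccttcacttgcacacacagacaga
Cyp2b10, chr7:25897408-25897657, plus strand: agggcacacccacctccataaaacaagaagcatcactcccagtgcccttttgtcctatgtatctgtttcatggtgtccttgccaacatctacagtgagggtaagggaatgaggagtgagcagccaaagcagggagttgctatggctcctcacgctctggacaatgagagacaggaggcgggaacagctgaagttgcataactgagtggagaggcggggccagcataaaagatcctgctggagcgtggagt
Mfsd2a, chr4:122961189-122961438, minus strand: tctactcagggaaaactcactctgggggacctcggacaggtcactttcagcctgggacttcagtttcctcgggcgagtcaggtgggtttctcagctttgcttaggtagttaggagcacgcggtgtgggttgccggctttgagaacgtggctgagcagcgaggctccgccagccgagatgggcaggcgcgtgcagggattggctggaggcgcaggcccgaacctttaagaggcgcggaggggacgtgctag
Dio2, chr12:90739039-90739288, minus strand: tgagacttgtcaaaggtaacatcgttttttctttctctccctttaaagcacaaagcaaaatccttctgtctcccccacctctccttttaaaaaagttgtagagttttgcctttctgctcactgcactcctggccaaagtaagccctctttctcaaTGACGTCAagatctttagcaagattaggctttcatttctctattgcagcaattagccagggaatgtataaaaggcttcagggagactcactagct
Ucp1, chr8:83290098-83290347, plus strand: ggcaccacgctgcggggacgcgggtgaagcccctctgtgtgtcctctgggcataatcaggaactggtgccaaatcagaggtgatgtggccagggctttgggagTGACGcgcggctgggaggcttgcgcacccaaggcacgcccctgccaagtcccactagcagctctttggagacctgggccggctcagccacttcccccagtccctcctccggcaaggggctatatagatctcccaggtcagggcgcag
The core occurred 4 times for Nr4a3, at positions -231, -213, -205 and -147, 1 time for Ucp1 at -147, and 0 times for Cyp2b10 and Mfsd2a. For Dio2 it was found on both strands of the complete element TGACGTCA at -95, where the 2 matches overlap. Of 32851 promoter windows of this length 17.8% held TGACG, 0.14% held 4 or more copies and 1.5% held TGACGTCA. The cut of 4 copies equals the count found for Nr4a3, so its share is a description and not a test. A match is a description of the sequence and not a measured site.

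Among the other brown-enriched genes with a smaller gap, Pon1, which encodes the antioxidant enzyme paraoxonase, had brown signals of 4938.4 in WT and 1160.6 in KO. Its white signals were lower in KO as well, and its gap went from 4.27-fold to 1.46-fold. Cldn1, a tight junction gene with an averaged gap just under 2-fold, had brown signals of 656.0 and 76.2 against white signals from 83.0 to 145.5, a gap change of -2.99 ± 0.29 (limma SE). Cdkn1a, the gene of the cell cycle inhibitor p21, followed another pattern. Its brown signals were 3464.1 and 3606.1, while the white signals went from 908.9 to 2943.2 and from 627.3 to 1503.7, so the gap of 4.59-fold in WT and 1.71-fold in KO differed through white fat. Scrn2 had a gap change of -1.46, mainly through higher white signals in KO, and Lrp3 one of -1.78, both on dim signals of at most 371.8. Thegl had -1.65, with the subcutaneous WT array under the floor, so that this change is at least as large.

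**Figure D3:**
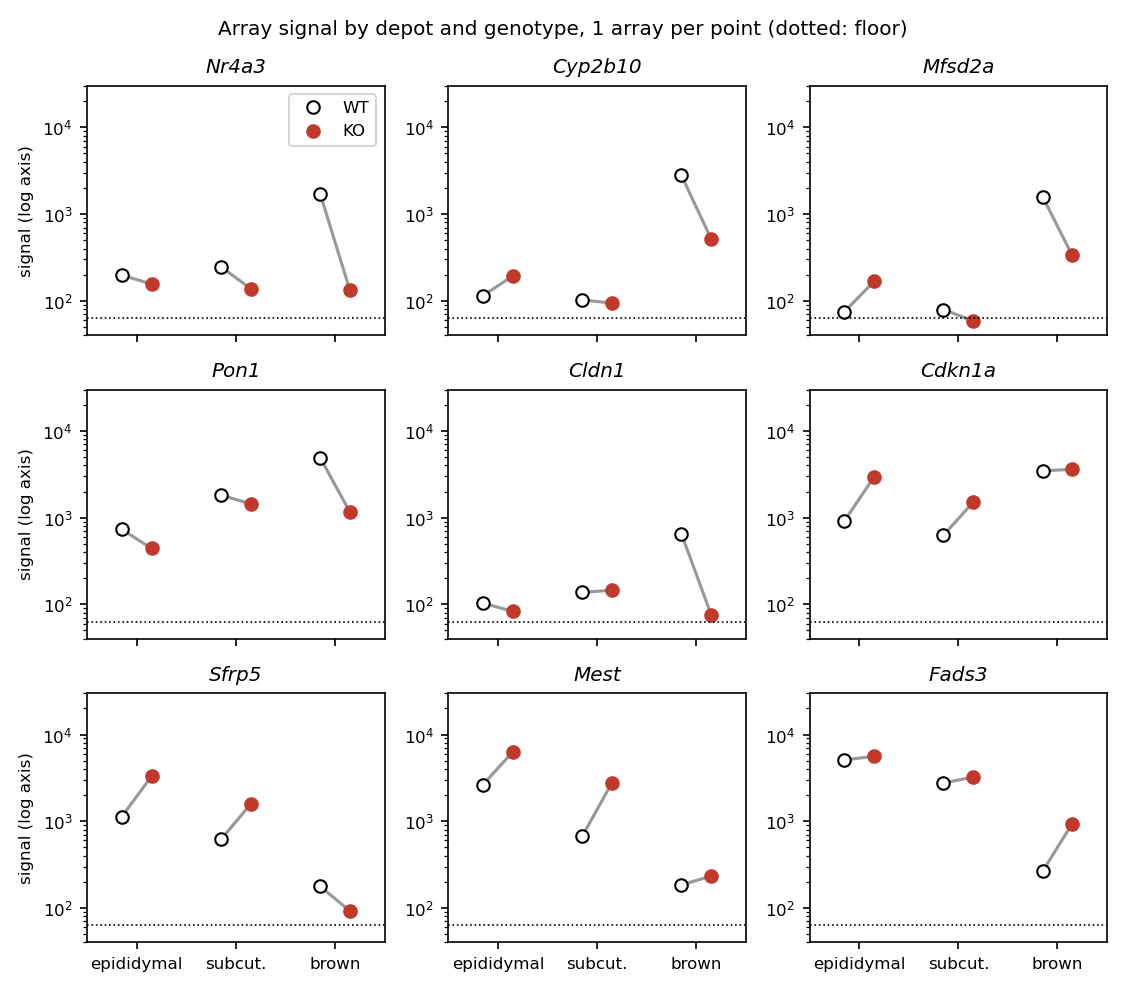
Signal (log axis) of 9 named genes by depot, 1 array per point, WT open and KO red; the dotted line is the floor of 63. For Nr4a3, Cyp2b10, Mfsd2a, Pon1 and Cldn1 the brown KO array is far below brown WT, for Cdkn1a, Sfrp5 and Mest the white KO arrays are above white WT, and for Fads3 brown KO (940.6) is above brown WT (264.0).

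Brown-enriched genes with a wider gap in KO were few. Atp4b, known as the beta subunit of the gastric proton pump, had a brown signal under the floor in WT and of 392.8 in KO, against white signals from 27.7 to 104.9. Its change was 3.11 with 2 arrays under the floor. With such signals raised to the floor its WT gap was -0.51, so it was not higher in brown fat in WT. Rab6b, which encodes a small GTPase of vesicle transport, had brown signals of 1118.8 and 2753.8, and its gap went from 1.86-fold to 5.22-fold. Ptgds, the prostaglandin D synthase gene, had a change of 1.23 that was 1.88 against epididymal and 0.59 against subcutaneous fat. Rflna (1.06), Nts (1.19), Wdtc1 (1.34) and Camk2b (1.05) completed the genes considered here, and Nts, Wdtc1 and Camk2b had arrays under the floor.

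A set of 7 genes was at least 2-fold higher in brown fat in WT and at least 2-fold lower there in KO (0.0529% of genes tested), and 0 went the opposite way. Muscle genes made up 5 of them, Mb, Myh1, Myh2, Mybpc1 and Ckmt2. The others were Dcpp3, with brown signals of 181.0 and 68.7, and Osgin1, an oxidative stress response gene, with brown signals of 287.0 and 36.3 and white signals from 132.8 to 193.5.

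Of the named white-enriched genes with a wider gap in KO, 3 differed mainly through higher white signals. Rnase2a, a ribonuclease gene of the eosinophil family, had signals of 154.8 and 4016.2 in epididymal and 60.9 and 335.4 in subcutaneous fat, and was under the floor in brown fat in both genotypes. Hspb7, a small heat shock protein gene, went from 401.7 to 2162.1 and from 54.8 to 373.3 in the white depots, and from 78.2 to 17.5 in brown fat. Its gap was at most 2.04-fold in WT, where the subcutaneous array was under the floor, and at least 14.3-fold in KO. Tph2, a tryptophan hydroxylase gene, was also higher in both white KO arrays and under the floor in brown fat. With signals under the floor raised to it, the WT gap was -0.65 for Rnase2a and -0.18 for Tph2, both under 2-fold.

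Others differed mainly through brown fat, among them Nnmt, the nicotinamide N-methyltransferase gene. Its white signals lay between 8103.0 and 11432.5 in both genotypes, whereas its brown signal was 6069.4 in WT and 1332.0 in KO. The gap was -0.59 in WT and -2.85 in KO on the log2 scale, a change of -2.27 ± 0.28 (limma SE). Ces5a, a carboxylesterase gene, had brown signals of 777.5 and 165.3, and Anxa8, an annexin gene, had 402.9 and 57.5, the latter under the floor. In WT these genes had almost no gap (0.03 for Ces5a and -0.07 for Anxa8). Rtn2, a reticulon gene, differed on both sides, lower in brown fat (192.4 to 54.8) and higher in both white depots. Lum, which encodes the matrix proteoglycan lumican, had brown signals of 3779.8 and 1198.2 and a gap of 2.05-fold in WT and 6.15-fold in KO. Of 28 matrix genes 20 were below 0 (against 52.5% of all genes), with a median of -0.32, and Lum was the 1 member past 2-fold downward, a share near the 3.68% of all genes. Against epididymal fat the matrix median was -0.54 and against subcutaneous fat -0.18.

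The gap was smaller in KO for several named white-enriched genes. Fads3, of the fatty acid desaturase family, had brown signals of 264.0 in WT and 940.6 in KO against white signals from 2756.4 to 5598.0. Its gap of 14.2-fold in WT was 4.52-fold in KO, a change of 1.65 ± 0.24 (limma SE), and 1 of 2 other probe sets lay on the same side. B3galt2, a galactosyltransferase gene, was lower in both white KO arrays and higher in brown KO, with gaps of 13.4-fold and 4.46-fold. St6galnac5, a sialyltransferase gene, had white signals of 847.5 and 1663.9 in WT and 227.8 and 565.1 in KO, with brown signals of 214.9 and 199.0. Tmem229b (1.64) and Cklf (1.99) had the brown WT array under the floor, so for these probe sets the values are lower bounds. Cklf depended on the probe set. With the floor at the 20th percentile of signals another probe set was the brightest and gave -0.28, while the first one gave 3.69 at that floor.

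Antibody and seminal vesicle transcripts were also among them. Igkv8-30 and Jchain, of plasma cells, had gaps that went from 49.3-fold to 7.04-fold and from 19.1-fold to 4.41-fold. Both values rested more on epididymal (3.88 and 3.41) than on subcutaneous fat (1.73 and 0.83), and antibody probe sets can share sequence. The lymphocyte list as a whole had a median gap change of 0.13, with 12 of 22 above 0 (against 47.5% of all genes). In each genotype 21 members were at least 2-fold higher in white fat. The summed signal of this list was 62654.2 in subcutaneous WT, 19311.1 in epididymal WT and 2581.4 in brown WT. Svs2, which encodes a seminal vesicle protein, had signals of 523.3 and 240.6 in epididymal, 898.4 and 132.9 in subcutaneous, and 69.0 and 155.3 in brown fat. Of 12 tested genes of the male reproductive tract, 11 had a gap change above 0 and 6 were past 2-fold, against 1.62% of all genes. The summed signal of the 15 list members on the arrays was 10552.7 in subcutaneous WT and 2666.8 in subcutaneous KO, and between 2872.2 and 5880.3 on the other arrays. The part of these transcripts in other gap changes was not tested.

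Lipid synthesis genes had a median gap change of 0.11, with 20 of 29 above 0 (against 47.5% of all genes). In this list 1 gene was past 2-fold upward (Fads3) and 2 downward, against 1.62% and 3.68% of all genes. Acacb, an acetyl-CoA carboxylase gene, had gaps of 6.92-fold and 13.8-fold, with white signals of 1529.7 and 1433.8 in WT and 737.3 and 1011.3 in KO. The 2 downward members were Mogat2, a monoacylglycerol acyltransferase gene that was higher in both white KO arrays (311.0 to 1032.0 and 200.4 to 432.6) with brown signals of 92.8 and 94.5, and Fads2, at -1.42, whose 2 other probe sets both lay on the opposite side. Cholesterol synthesis genes had KO-WT medians of 0.61 in brown fat and 0.42 in the white mean. Their median gap change was 0.08, with 12 of 20 above 0 (against 47.5% of all genes). None of these 20 was past 2-fold in its gap change (against 5.3% of all genes). Lss and Insig1, of lanosterol synthesis and sterol sensing, were the largest at 0.68 and 0.67. Of this list, 1 gene was at least 2-fold higher in brown fat in WT and 4 in KO.

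Immediate early genes, which respond within minutes to stimulation, had gap changes in both directions. Of 20 tested, 14 had a gap change above 0 (against 47.5% of all genes) and 6 below, with a median of 0.22. Egr1 had brown signals of 607.2 in WT and 1656.3 in KO, Fos 99.7 and 292.4, and Dusp1 2771.9 and 6341.4, with gap changes of 1.46, 1.12 and 0.99. The white signals of Egr1 stayed between 1276.6 and 1488.1. Nr4a3, described before, was the 1 member past 2-fold downward (against 3.68% of all genes), at -3.11. Egr1 and Fos were the 2 members past 2-fold upward (against 1.62% of all genes). Adipocyte genes common to all depots had a median of -0.00 and a range from -0.40 to 0.53 over 16 genes, and 14 genes of lipolysis and its receptors had a median of 0.11.

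**Figure D4:**
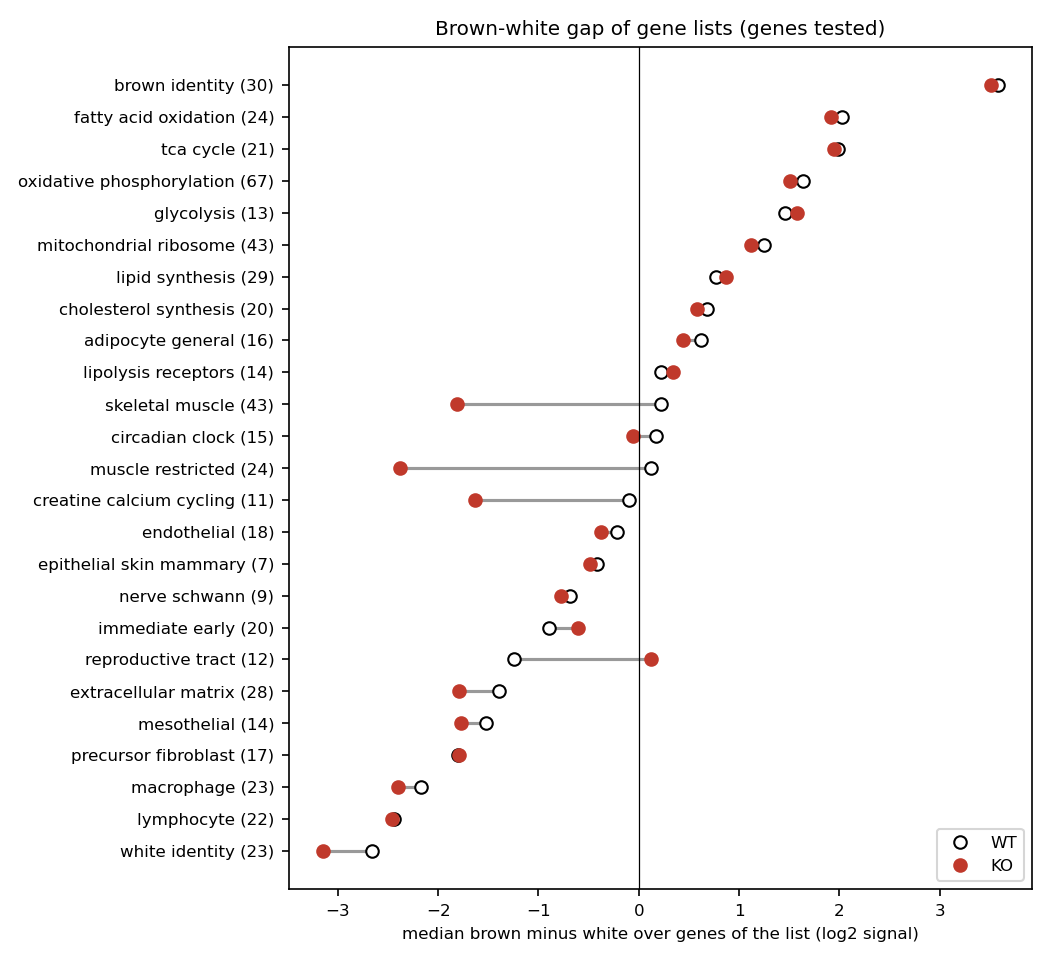
Median brown-white gap of 25 gene lists in WT (open) and KO (red), in log2 signal, with the number of genes tested in parentheses. Metabolic lists keep their place on the brown side and immune and stromal lists on the white side, while the skeletal muscle lists, the creatine and calcium cycling list and the male reproductive tract list have WT and KO medians more than 1 apart. For the creatine and calcium cycling list the median of the gap changes themselves is -0.30.

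Skeletal muscle transcripts had larger gap changes than the adipocyte lists. Of 24 tested genes restricted to muscle, 21 had a gap change of 2-fold or more downward (against 3.68% of all genes) and 0 upward, with a median of -2.81. The summed signal of the 26 list members was 10933.5 (WT) and 7239.6 (KO) in epididymal fat, 88748.2 and 103357.3 in subcutaneous fat, and 35504.8 and 9513.7 in brown fat. In brown fat 24 of the 26 were above the floor in WT and 10 in KO. Subcutaneous fat carried the most muscle signal in both genotypes. Acta1, the skeletal actin gene, had brown signals of 4420.3 in WT and 159.6 in KO, and Tnnc2, a fast troponin gene, 2637.2 and 85.0. For Mb, the myoglobin gene, both sides differed, with brown signals of 1432.8 and 75.5 and subcutaneous signals of 81.1 and 1637.2. The median of the list was -1.71 against epididymal fat alone and -3.73 against subcutaneous fat alone.

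**Figure D5:**
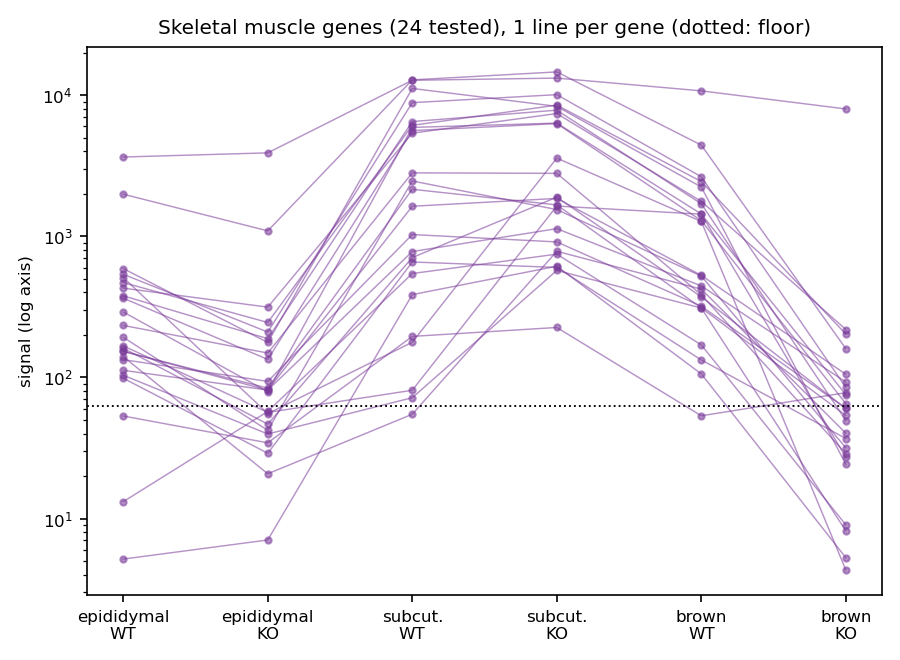
Signal (log axis) of the 24 tested muscle-restricted genes on the 6 arrays, 1 line per gene, with the floor of 63 dotted. Apart from Cacna1s, every line is lower on brown KO than on brown WT, and Myl1 alone stays bright there (10710 in WT and 7974 in KO).

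Some muscle genes are also on other lists. On a list of creatine and calcium cycling genes, 4 of 11 were past 2-fold downward (against 3.68% of all genes), with a median of -0.30 and a mean of -0.82, and 3 of the 4 were also on the muscle list, namely Ckmt2 (-2.86), Atp2a1 (-2.14) and Ryr1 (-1.88). The fourth, Atp2a3, had -1.01, mainly against epididymal fat (-1.60). Cox8b, on both the brown adipocyte and the muscle list, had 0.14. Without the muscle list the numbers of genes past 2-fold were 458 downward and 215 upward, and 35 brown-enriched genes had a smaller gap. The part of muscle transcripts in the values of other genes was not tested.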

How the data were processed

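Total RNA of 6 samples was hybridised to Affymetrix arrays with biotin label. Per the submitters' processing notes, the authors' deposited intensity values were made with MAS5 in Affymetrix Expression Console, with versions not given in the sources used here. The 2%-trimmed mean intensity was 500.0 on each array, which hides differences in total RNA. Without controls there were 45037 probe sets. The platform annotation pairs 34945 of these with 1 gene symbol, 932 with several and 9160 with none. Symbols were looked up in RefSeq (GRCm38.p6), where 34741 were found and 0 changed.

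Deposited intensities under 63 were set to 63 before taking log2. The brightest probe set by mean log2 signal stood for each gene, which had to exceed the floor on 3 or more arrays. A fold is called "at least" where arrays under the floor make it a lower bound. The model in limma 3.58.1 (R 4.3.3) held depot, genotype and genotype within brown fat as terms over all 6 arrays, leaving 1 residual degree of freedom, with Benjamini-Hochberg adjustment. The brown arrays are assumed to vary like the white ones, and the white depots stand in for replicates. The spread shared by all genes counted for 3.12 further degrees of freedom in each SE. The fit was tested on simulated data. Other steps used Python 3.11.15 with pandas 2.3.3, numpy 2.4.6, matplotlib 3.10.9 and scipy 1.17.1.

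The comparison and the 25 gene lists were chosen with earlier results of these data known. Of 658 list entries 611 were matched to the arrays, 6 of them through a synonym, and lists are described by counts and medians. Named genes are the members of both identity lists, the 12 genes with the highest and lowest averaged gap, the 8 most changed per class and direction outside the muscle list, 5 muscle genes, genes whose gap turned, up to 4 members of each other list and the 10 smallest limma p-values per direction, with filters on brightness, clone names and agreement of depots and probe sets.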

Additional observations from a re-analysis of the deposited data

Results flagged for a closer look

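Among the named genes, 12 differed in opposite directions in brown fat and in both white depots, each by more than the SD between probe sets for that depot (0.33 for brown, 0.31 for epididymal and 0.32 for subcutaneous fat). With 1 array per group this difference between depots was not tested gene by gene beyond the limma model, in which none passed. When limma's variance followed intensity, 3 of the 12 were called, Sfrp5 (adjusted p = 0.00529), Rtn2 (0.0175) and B3galt2 (0.0207). Among all genes tested, 191 met the same condition. Lower in brown KO and higher in both white KO arrays were Sfrp5 (gap change -2.39), Dcpp3 (-2.43), Rtn2 (-2.32), Thegl (-1.65) and Fads2 (-1.42). For Sfrp5 the KO-WT differences were -0.94 in brown, 1.54 in epididymal and 1.35 in subcutaneous fat, and for Rtn2 they were -1.61, 0.66 and 0.75. Higher in brown KO and lower in both white KO arrays were Svs2 (3.11), Igkv8-30 (2.81), Zfp395 (2.0), Svs5 (1.99), Pate14 (1.74), B3galt2 (1.59) and Camk2b (1.05). Zfp395 was dim (at most 154.0), with brown WT (31.8) and subcutaneous KO (40.1) under the floor. Rtn2, Thegl and Camk2b each had an array under the floor, and the 2 other probe sets of Fads2 lay on the opposite side. Svs2, Svs5 and Pate14 are on the male reproductive tract list, whose summed signal was lowest in subcutaneous KO.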

How the results depend on the processing

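No paired analysis was possible because each group has 1 array and the labels carry no replicate numbers. Leaving out a replicate was likewise not possible, and each white depot alone took that place. The values give no depth, and signals near the floor set most of the limits. Causes of the differences below were not tested, apart from fewer genes under stricter filters.

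Genes past 2-fold upward and downward numbered 832 and 1576 with the floor at the 20th percentile, 80 and 104 with it at the 60th, and 132 and 225 when all 6 arrays had to exceed the floor. They numbered 830 and 1465 at 1.5-fold and 34 and 115 at 3-fold. Upward genes numbered 329 after median centring, 115 with the mean of probe sets and 356 against epididymal fat alone, and downward genes 784 against subcutaneous fat alone. The median gap change of all genes was 0.12 after median centring.

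The share of brown-enriched genes apart by 2-fold in both genotypes was 77.0% after quantile normalization, 68.1% and 84.1% with the floor at the 20th and 60th percentile, 77.2% against epididymal fat alone, 82.3% on all 6 arrays, 64.8% for genes chosen by the WT gap and 100% at 4-fold enrichment. For white-enriched genes it was 75.5% and 82.5% with those floors, 78.8% and 76.1% when chosen by the WT or KO gap, and 99.4% at 4-fold. The 2 shares at 4-fold enrichment still used the 2-fold criterion, so they follow largely from the choice of genes. At least 4-fold apart in both genotypes were 188 of 229 such brown-enriched genes and 523 of 674 such white-enriched genes. Brown-enriched genes with a smaller and a wider gap numbered 214 and 59 (floor at the 20th percentile), 11 and 5 (60th), 20 and 4 (all 6 arrays), 160 and 5 (chosen in WT), 9 and 27 (chosen in KO) and 5 and 4 (4-fold), with 16 wider after median centring and 29 against epididymal fat alone. White-enriched genes with a smaller and a wider gap numbered 254 and 296 (20th percentile), 18 and 41 (60th), 31 and 73 (mean of probe sets), 37 and 67 (all 6 arrays), 121 and 54 (chosen in WT), 29 and 213 (chosen in KO) and 19 and 42 (4-fold).

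The muscle-restricted median was -3.25 with the floor at the 20th percentile, -2.04 with the mean of probe sets, -1.71 and -3.73 against epididymal and subcutaneous fat alone, and -3.19 on all 6 arrays. limma called 9 upward and 25 downward genes with an intensity trend, and 57 and 99 after median centring, where it used 1 spread for all genes. With the white depots as 2 arrays of a group it called 0, with 129 upward and 261 downward at an unadjusted p under 0.05. Of values for single genes and other lists under an alternative, 1855 stayed within the probe set SD of the reported value and 224 moved by more. Among named genes past 2-fold, 1 value changed sign (Cklf, -0.28 with the floor at the 20th percentile, where another probe set stood for the gene).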

Other observations

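Some lists of other cell types kept a median on the white side in both genotypes, unlike the muscle, reproductive tract and circadian clock lists. Of 23 macrophage genes, 22 were at least 2-fold higher in white fat in WT and 23 in KO, with a median gap change of -0.23 that was -0.50 against epididymal and 0.21 against subcutaneous fat. Mesothelial genes, of the lining of the body cavity, had 12 of 14 in WT and 13 in KO and a median of -0.01. The summed signal of the 17 mesothelial genes on the arrays was 29654.0 in epididymal WT, 7015.6 in subcutaneous WT and 2297.5 in brown WT. Epididymal fat thus carried most of it. Precursor and fibroblast genes had 15 and 14 of 17 and a median of -0.06. Endothelial genes differed little between depots (median gaps of -0.22 and -0.38, median change -0.15 over 18 genes). Schwann cell and nerve genes had a median of -0.19 over 9 genes and epithelial genes -0.30 over 7. Circadian clock genes had a median of 0.01 over 15 (median gaps of 0.17 and -0.05). Of these 3 short lists' members 0 were past 2-fold, against 5.3% of all genes.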
